A study of Mus musculus with 48 samples.

Results

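The *Fox* and *Sox* genes encode transcription factors that bind DNA, the first through a forkhead domain and the second through an HMG box like that of the sex-determining factor SRY. Members were found by their symbols in the deposited count table: *Fox* with a letter and a number, *Sox* with a number, leaving out 1 *Sox* gene as well as antisense and overlapping transcripts. This gave 52 of the 16510 genes of the table, 35 *Fox* and 17 *Sox* genes. The question was how their expression differed between control and Eed-cKO embryos in neurons, in astrocytes and in the non-neural cells of the same brains, and which of them were silent in control embryos and detected in Eed-cKO embryos.

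Single-cell RNA of the mouse hypothalamus at E18.5 was counted by unique molecular identifiers (UMIs, short tags that count each captured transcript once). *Eed* encodes a core subunit of Polycomb repressive complex 2 (PRC2), which marks the histones of silent developmental genes. Control embryos were *Eed* fl/fl and Eed-cKO embryos were *Eed* fl/fl with *Sox1*-Cre/+, so both groups carried floxed *Eed* alleles on a mixed B6:129S1 background. There were 6 control embryos (22 libraries) and 9 Eed-cKO embryos (26 libraries), each library coming from 1 embryo, and the embryo was the replicate throughout.

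The Cre recombinase is placed in the *Sox1* gene and acts in the early neural lineage. An Eed-cKO embryo therefore carried 1 modified *Sox1* allele and a control embryo none. The paper takes non-neural cells, such as vascular cells, blood cells and microglia, to be outside the reach of the Cre. Whether *Eed* was intact in them was not tested here. No litter, as read from the library names, held both genotypes (4 control and 6 Eed-cKO litters), so litter and genotype cannot be told apart. The control embryos were 2 females and 4 males, the Eed-cKO embryos 5 females and 4 males.

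As background, PRC2 keeps regulators of other tissues and stages silent, and many forkhead and *Sox* genes with CpG-rich promoters are among its known targets. In the developing brain the SoxB1 genes (*Sox1*, *Sox2*, *Sox3*) maintain progenitors and continue in astrocytes, the SoxC genes (*Sox4*, *Sox11*, *Sox12*) act in young neurons, *Sox10* acts in the oligodendrocyte lineage, and the SoxF genes (*Sox7*, *Sox17*, *Sox18*) act in vessel walls. *Foxc1*, *Foxc2* and *Foxf1* are known from mesenchyme, meninges and vessels, *Foxd3* from the neural crest, *Foxa2* from the floor plate and *Foxj1* from cells with motile cilia.

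The table held 14121 cells. Control embryos had 7186 cells and 39144013 UMIs, with 5363119 in the lowest embryo, a median of 6785494 and 7487417 in the highest. Eed-cKO embryos had 6935 cells and 35343604 UMIs, with 658175 in the lowest embryo, a median of 4386172 and 6299181 in the highest. The lowest, F0582_E2, had 217 cells and stood apart in depth. Leaving it out ended no call of a member in neuron-like cells, and ended calls such as those of *Foxm1* in All-Hypo cells and of *Sox21* in astrocyte-like cells. Of 14019 cell barcodes, 101 occurred in more than 1 library, and 0 pairs of cells with a shared barcode had identical counts. The table lists only genes with at least 7 UMIs in all.

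Cells were clustered with the *Fox* and *Sox* genes left out, and the clusters were named from marker genes that include none of them. Neuron-like cells (*Tubb3*, *Snap25*, *Stmn2*) numbered 5212 in control and 4617 in Eed-cKO embryos, with a median of 5553.5 and 4841 UMIs per cell. Astrocyte-like cells (*Slc1a3*, *Aqp4*, *Aldh1l1*) numbered 319 and 325, with 4261 and 3710 UMIs per cell. Non-neural cells numbered 346 and 480, with 3941 and 3702.5 UMIs per cell, and joined endothelial-like cells (150 and 123), pericyte or smooth muscle-like cells (57 and 43), leptomeningeal-like cells (89 and 268) and microglia or macrophage-like cells (50 and 46). All other cells, among them cycling progenitor-like, tanycyte-like, ependymal-like and unnamed cells, were joined with the neuron-like and astrocyte-like cells as All-Hypo cells (6840 and 6455). Different clusters made up the neuron-like cells of the 2 genotypes: 1 cluster led by *Sp8* held 1510 control and 241 Eed-cKO cells, and 1 led by *Tfap2b* held 29 and 1569. Other parts of All-Hypo were also made of different cells. Choroid plexus-like cells numbered 0 in control and 61 in Eed-cKO embryos, tanycyte-like cells 79 and 254, and 1 unnamed cluster, held 0 and 226. In this cluster all 10 neuron markers were raised, but its 10 leading genes included a pituitary and a blood marker and no neuron marker, and it was left unnamed for that reason. The astrocyte-like cells formed 1 cluster at Leiden resolution 1 and 2 at resolution 2, of 317 control and 113 Eed-cKO cells and of 2 and 212.

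UMIs were summed per embryo and class. Levels below are in CPM, a gene's share of the embryo's normalized UMI total in that class on a per-million scale, which makes embryos comparable for 1 gene and does not compare genes with each other. Fold changes are Eed-cKO against control on the log2 scale, from edgeR's quasi-likelihood test over 6 control and 9 Eed-cKO embryos. Values after ± are approximate standard errors (SE). They were back-calculated from each fold change and its F statistic rather than estimated by the fit. They are not meaningful where a group had no UMIs. A gene was called when its p adjusted by Benjamini-Hochberg over all genes tested in that class was under 0.05.

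*Eed* itself was lower in Eed-cKO neural cells. In All-Hypo cells it was at 29.9 in the lowest control embryo, 32.8 at the median and 34.1 in the highest, against 19.5, 22.6 and 27.4 in Eed-cKO embryos (log2 fold change -0.47 ± 0.09, edgeR adjusted p = 0.000287). All 9 Eed-cKO embryos were below every control embryo. In neuron-like cells it was at 27.9, 31.5 and 32.8 against 18.3, 22.4 and 27.0 (log2 fold change -0.43 ± 0.09, edgeR adjusted p = 0.0023), again without overlap. The groups overlapped in astrocyte-like cells, at 21.4, 30.3 and 47.4 against 11.7, 23.7 and 56.4 (edgeR adjusted p = 0.79), and in non-neural cells, at 24.8, 40.0 and 50.1 against 7.21, 24.6 and 99.7 (edgeR adjusted p = 0.42). UMIs are read near the 3' end of a transcript and may lie outside the deleted exons, and the antisense gene *E230029C05Rik* overlaps *Eed*, so these values check the genotype labels and do not measure how many cells lost the protein.

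Over all cells the members spanned the range from silent to abundant. Control UMIs ran from 0 for *Foxd3* to 51691 for *Sox11*, with a median of 408 over the 52 genes, and 8 of them had under 100 UMIs over both genotypes. These 8 were *Foxd3* with 0 control and 98 Eed-cKO UMIs, *Foxl1* with 6 and 12, *Foxi2* with 7 and 4, *Foxo3* with 7 and 7, *Foxb2* with 15 and 14, *Sox30* with 20 and 37, *Foxn4* with 25 and 44, and *Foxp3* with 28 and 22. Among the abundant members, *Sox11* had 51691 control and 51871 Eed-cKO UMIs, *Sox4* 15386 and 12879, *Sox2* 6158 and 5648, *Foxp1* 6124 and 6023, and *Foxp2* 5797 and 3667. The plot of UMI totals shows *Foxd3* alone at 0 on the control axis.

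**Figure D1:**
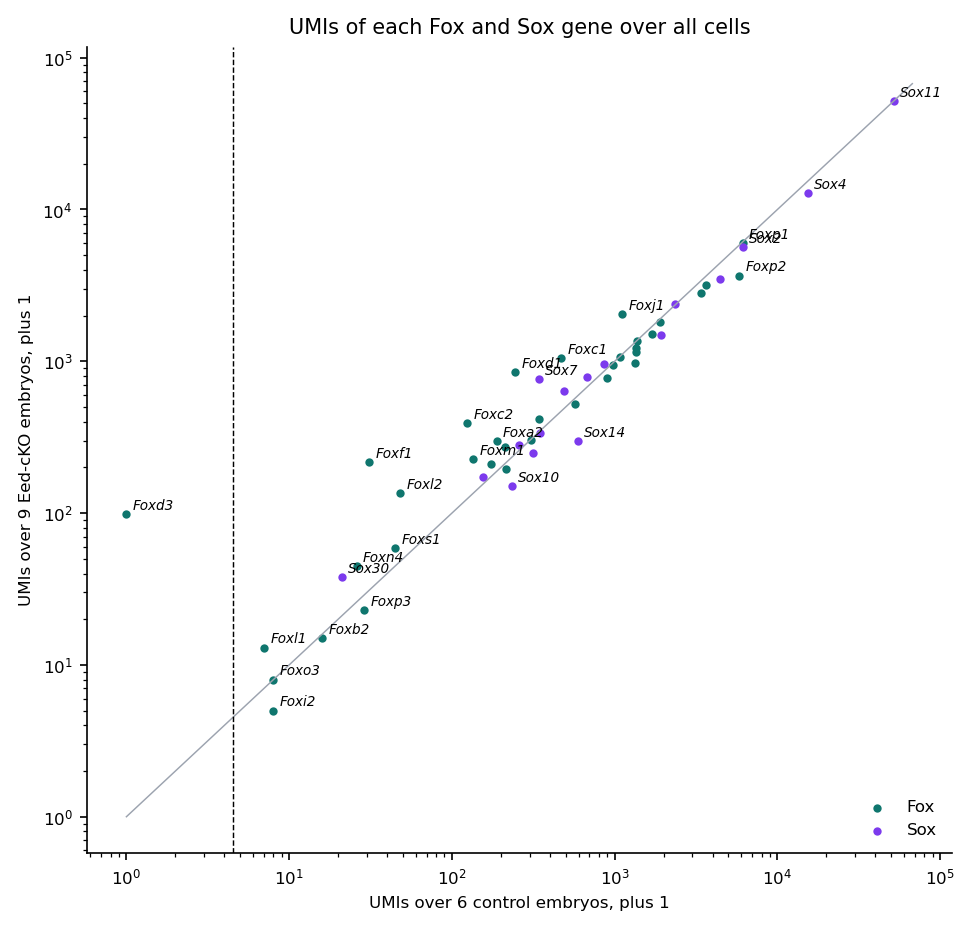
UMIs plus 1 of each of the 52 *Fox* and *Sox* genes summed over all cells of the 6 control embryos (horizontal, log axis) and of the 9 Eed-cKO embryos (vertical, log axis), with the limit of 3 control UMIs as a dashed line and equal totals as a diagonal. *Foxd3* lies at 0 control and 98 Eed-cKO UMIs, and *Foxf1* at 30 and 216.

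In neuron-like cells 6 *Fox* genes (*Foxd1*, *Foxd3*, *Foxf1*, *Foxl2*, *Foxc1*, *Foxa2*) and 3 *Sox* genes (*Sox21*, *Sox7*, *Sox18*) rose in Eed-cKO embryos, all of them except *Foxa2* and *Sox21* from 19 or fewer control UMIs, and *Foxo1*, *Sox14*, *Foxp2* and *Sox13* fell. Altogether 13 of the 46 members tested were called (28.3%), against 14.1% of the 15091 genes tested, 7.61% being higher and 6.51% lower. Of the *Fox* genes 8 of 29 were called (6 higher, 2 lower), and of the *Sox* genes 5 of 17 (3 higher, 2 lower). Eed-cKO embryos lay above every control embryo without overlap for 4 members, against 1.82% of all genes, and below without overlap for 0 members, against 1.38%. The median log2 fold change of the members was 0.152, also with the genes at 0 control UMIs set to their lower bound, and 0.00454 over all genes. Genes called higher made up 53.9% of all genes called, and 64.8% when scaled by library size alone, which moved the median of all genes by 0.0353.

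**Figure D2:**
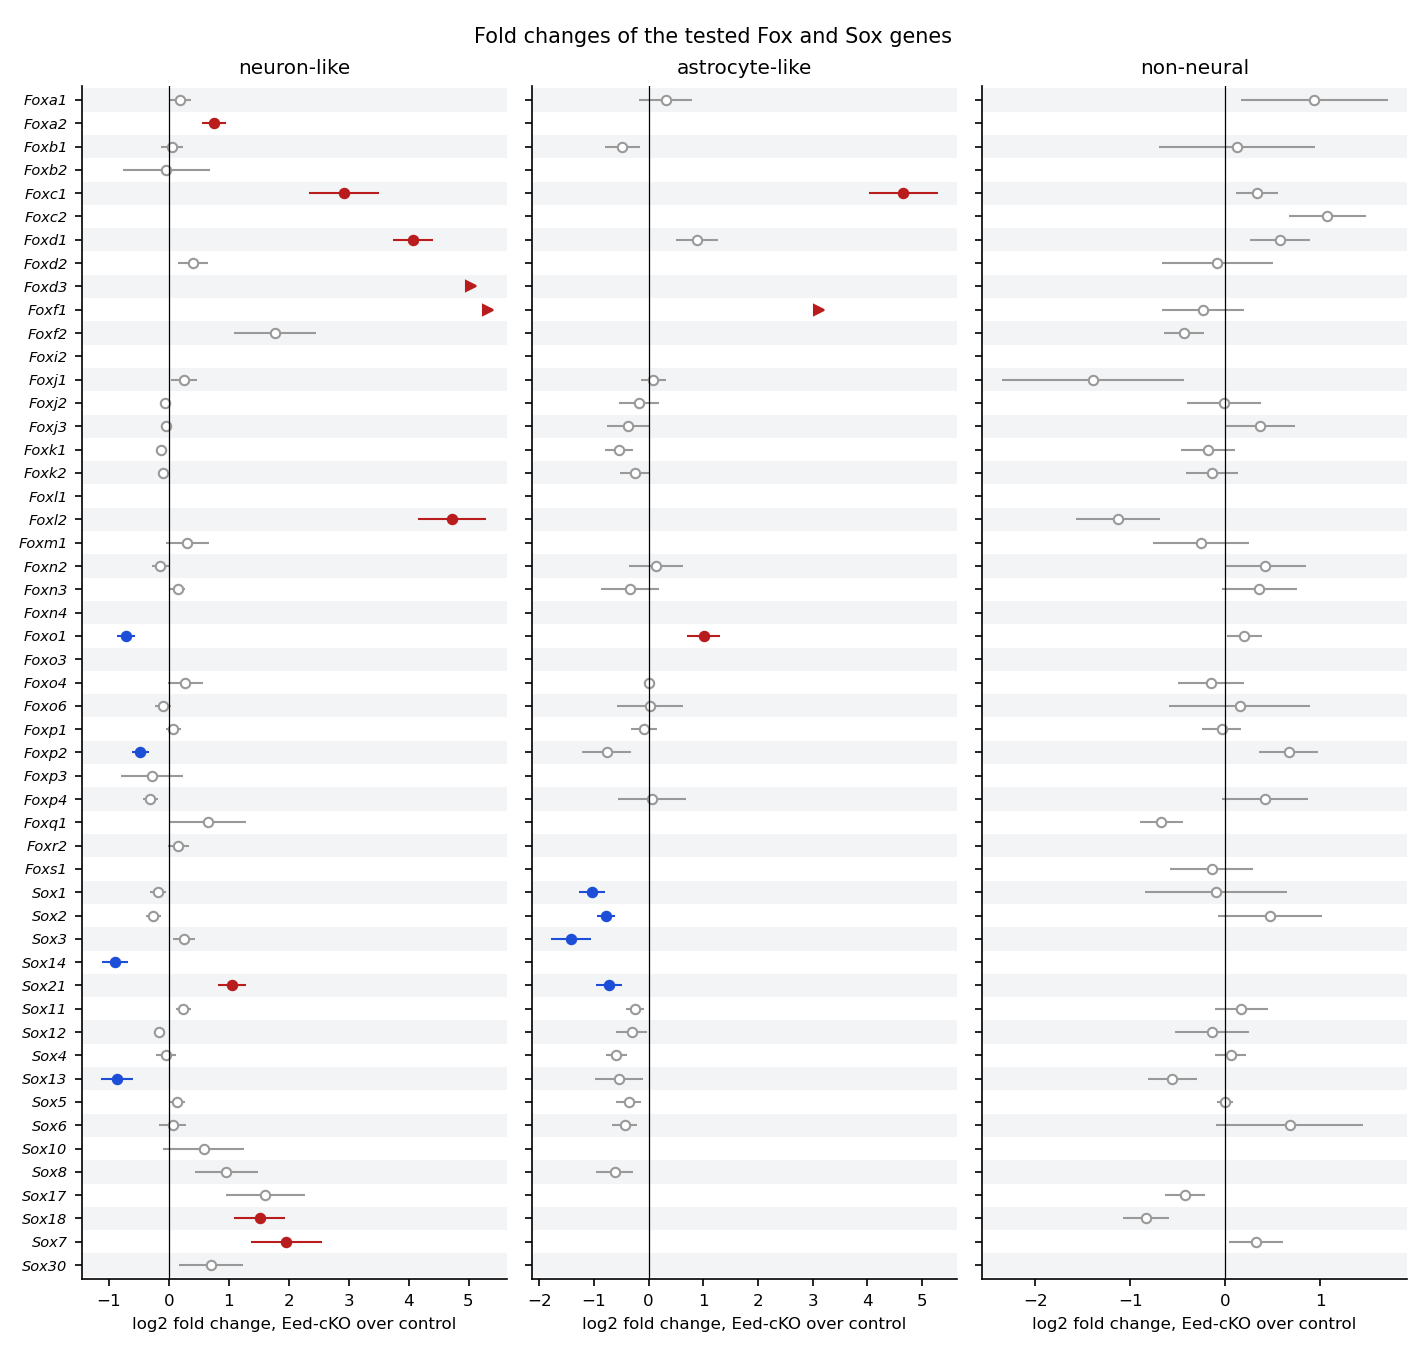
Log2 fold change of Eed-cKO against control with its approximate, back-calculated SE for members tested in neuron-like, astrocyte-like and non-neural cells, from 6 control and 9 Eed-cKO embryos. Filled red and blue points passed an edgeR adjusted p of 0.05 as higher or lower, open grey points did not, and triangles are lower bounds for genes with 0 control UMIs, among them *Foxf1* and *Foxd3* in neuron-like cells.

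*Foxd1*, a regulator of the early retina and hypothalamus and of mesenchyme, was counted with 19 UMIs in the control and 265 UMIs in the Eed-cKO neuron-like class. Its level was 0.159 in the lowest control embryo, 0.561 at the median and 1.24 in the highest, against 4.35, 9.93 and 16.1 in Eed-cKO embryos (log2 fold change 4.07 ± 0.33, edgeR adjusted p = 3.75e-10). All 9 Eed-cKO embryos were above every control embryo. *Foxd3*, which specifies the neural crest, had 0 control UMIs in this class and 78 in Eed-cKO neurons, with at least 1 in each of the 9 embryos. Eed-cKO levels were 0.509, 3.10 and 5.45, at least 33.1-fold higher than control, counting 3 UMIs over the control embryos as the limit that 0 allows (edgeR adjusted p = 7.36e-07). The 2 groups did not overlap. *Foxd2*, the other FoxD gene, was not called, with 127 control and 134 Eed-cKO UMIs (edgeR adjusted p = 0.307).

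*Foxf1*, a gene of the mesenchyme of gut and lung and of vessels, had 0 control UMIs and 94 Eed-cKO UMIs in neuron-like cells. Control levels were all 0, and Eed-cKO levels 0, 3.17 and 5.45, at least 39.9-fold higher on the same limit (edgeR adjusted p = 7.12e-08). UMIs were seen in 8 of the 9 Eed-cKO embryos, and the shallowest embryo, F0582_E2, was at 0 like the controls. *Foxf2*, its paralogue in brain pericytes, had 6 control and 18 Eed-cKO UMIs and was not called (log2 fold change 1.77 ± 0.68, edgeR adjusted p = 0.0819). Of its 6 control UMIs 4 came from F4650_E2, and without that embryo it was called (edgeR adjusted p = 0.0109).

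*Foxl2*, a factor of the ovary and the anterior pituitary, had 2 control UMIs, both in F4690_E3, and 62 Eed-cKO UMIs in neuron-like cells. Levels were 0, 0 and 0.305 in control and 1.36, 2.32 and 3.99 in Eed-cKO embryos, a ratio of 39.4 with a 95% counting interval of 10.5 to 333 (edgeR adjusted p = 5.8e-07). No Eed-cKO embryo overlapped the controls. *Foxl1* had 1 control and 2 Eed-cKO UMIs and was not tested. The annotation places the opposite-strand gene *Foxl2os*, also in the table, over *Foxl2*, and whether counting used the strand is not given in the sources used here, so reads of the pair cannot be told apart.

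*Foxc1*, needed for the meninges and skull, had 6 control UMIs in 2 embryos and 41 Eed-cKO UMIs in neuron-like cells. Control levels were 0, 0 and 0.694, and Eed-cKO levels 0.775, 1.53 and 3.99 (log2 fold change 2.93 ± 0.59, edgeR adjusted p = 0.000877). The groups did not overlap, and the log2 fold change ran from 2.65 to 3.93 when each embryo was left out in turn. *Foxc2*, its paralogue in the mesenchyme of vessels and meninges, had 0 control UMIs and 13 in 5 Eed-cKO embryos (0, 0.387 and 1.06), at least 5.51-fold higher, and had too few UMIs to be tested. With no gene filter it was tested and called (edgeR adjusted p = 0.00579).

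**Figure D3:**
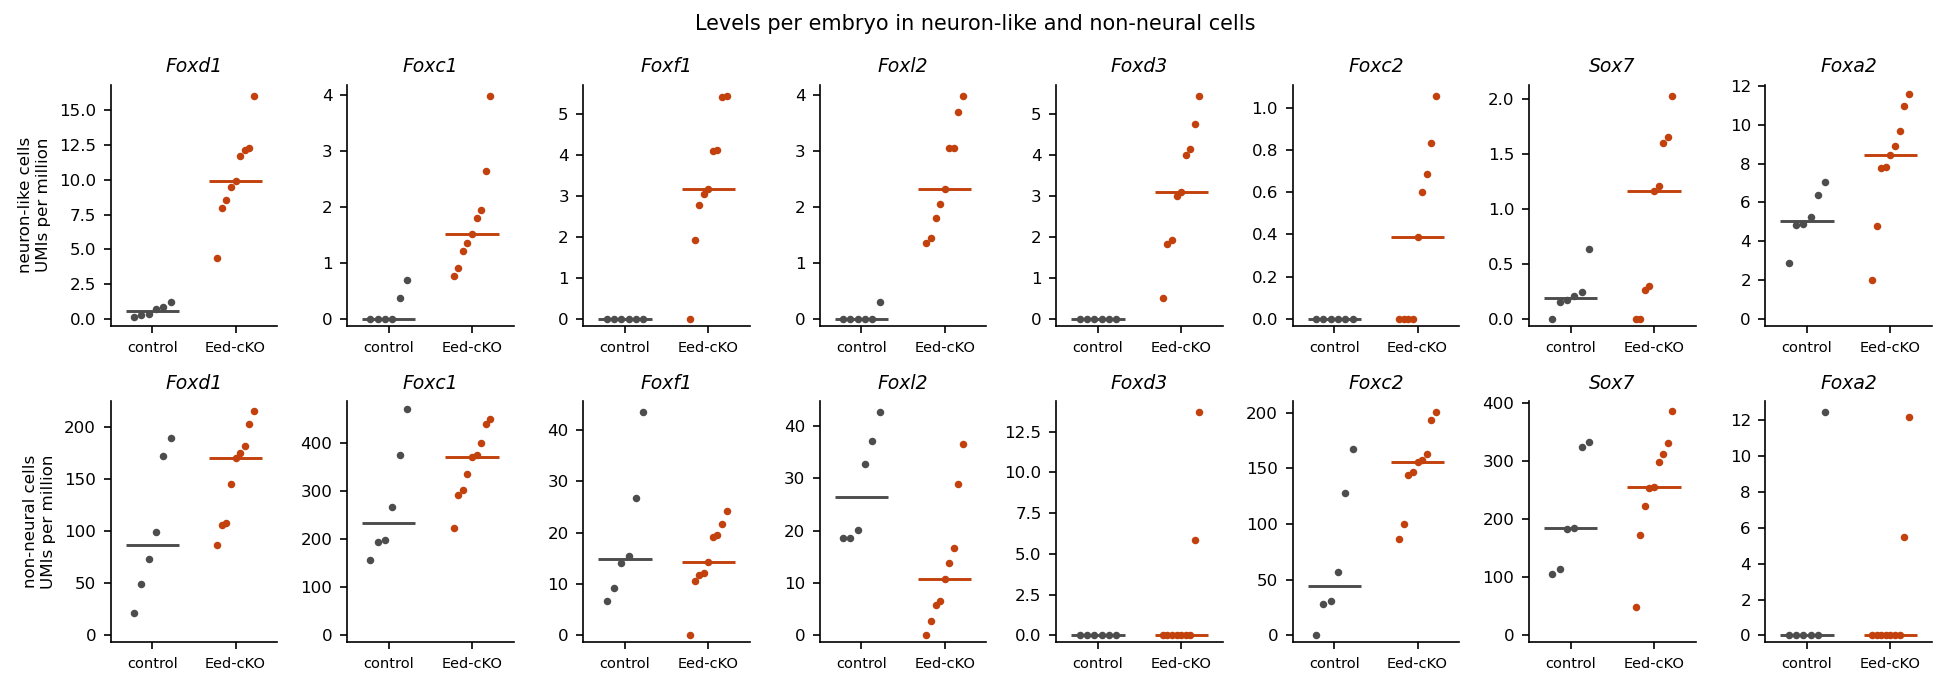
Level of *Foxd1*, *Foxc1*, *Foxf1*, *Foxl2*, *Foxd3*, *Foxc2*, *Sox7* and *Foxa2* in CPM (UMIs on the per-million scale) in each embryo (points) with the group median (line), for neuron-like cells (upper panels) and non-neural cells (lower panels). In neuron-like cells *Foxd1* reached 1.24 in the highest of 6 control embryos and 4.35 in the lowest of 9 Eed-cKO embryos, while in non-neural cells the groups overlapped for each of these genes that was tested.

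RNA from burst cells enters all droplets, and *Foxc1*, *Foxc2* and *Foxd1* are also genes of leptomeningeal-like cells, which were more numerous in Eed-cKO embryos. The 7 leptomeningeal markers summed to 1.69, 3.92 and 7.81 CPM in control neurons and to 5.60, 12.8 and 21.2 in Eed-cKO neurons, 3 of the 5 tested were higher (*Col3a1*, *Dcn*, *Col1a2*), the most abundant was *Col1a2* with 64 and 162 UMIs, and 0 of 7 were at 0. In the ratio of leptomeningeal-like cells these marker UMIs would bring 4.57 UMIs of *Foxd1* to Eed-cKO neuron-like cells, where 265 were counted, 8.84 of *Foxc1*, where 41 were counted, and 4.70 of *Foxc2*, where 13 were counted. In control neurons the same ratio gives 2.59 of *Foxd1* (19 counted), 4.49 of *Foxc1* (6 counted) and 2.19 of *Foxc2* (0 counted). In the ratio of endothelial-like cells, which also express *Foxc1*, endothelial marker UMIs would bring 11.85 UMIs of it to Eed-cKO and 17.95 to control neurons, the latter above the 6 counted. The part of RNA from other cells in these values was not tested.

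The raised genes were spread over clusters in different ways. In Eed-cKO embryos 61.2% of all *Foxd3* UMIs lay in the *Tfap2b*-led neuron-like cluster, which held 23.8% of all UMIs. That cluster held 60.1% of the *Foxa2* UMIs, 41.0% of those of *Foxl2* and 34.7% of those of *Foxf1*. In control embryos *Foxf1* and *Foxl2* were mostly vessel genes, with 93.3% and 78.7% of their UMIs in endothelial-like cells. Leptomeningeal-like cells held 120 of the 123 control and 356 of the 393 Eed-cKO UMIs of *Foxc2*. Which share of the rise came from more cells of the *Tfap2b*-led cluster was not tested.

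Promoters of the family were rich in CpG pairs. RefSeq promoters (GRCm38.p6, 250 bases before to 50 after the start) were at hand for 33 of the 52 members. They held a median of 26 CpG pairs, against 19 over 12334 genes of the table and 7 over all 27025 promoters. For members the promoter nearest to the annotated start was taken, and in the other sets the first one listed for each gene. The part of this choice in the differences between the sets was not tested. The letters CGCG, which read the same on both strands, were in 28 of the 33 (84.8%), in 65.7% of those of the table's genes and in 38.4% of all promoters of that length. The promoters of *Foxd3* (chr4:99656049-99656348, plus strand, 25 CpG pairs and CGCG at 4 places) and *Foxl2* (chr9:98955357-98955656, plus strand, 27 and 2) are shown because both genes were silent in control neurons, and that of *Foxr2* (chrX:153118538-153118837, plus strand, 3 and 0) because no member had fewer CpG pairs, a number it shares with *Sox5*. The *Foxl2* stretch follows the RefSeq start and lies inside the gene as annotated below (98955288 to 98958543), whose start is further upstream. Each runs 5' to 3' with CpG pairs in capitals.
Foxd3: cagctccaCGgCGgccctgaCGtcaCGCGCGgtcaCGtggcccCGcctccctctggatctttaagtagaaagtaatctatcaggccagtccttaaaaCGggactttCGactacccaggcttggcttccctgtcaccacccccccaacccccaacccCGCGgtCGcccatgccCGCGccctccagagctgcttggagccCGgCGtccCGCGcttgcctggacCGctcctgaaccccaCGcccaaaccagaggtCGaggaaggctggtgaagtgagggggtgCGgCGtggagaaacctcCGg
Foxl2: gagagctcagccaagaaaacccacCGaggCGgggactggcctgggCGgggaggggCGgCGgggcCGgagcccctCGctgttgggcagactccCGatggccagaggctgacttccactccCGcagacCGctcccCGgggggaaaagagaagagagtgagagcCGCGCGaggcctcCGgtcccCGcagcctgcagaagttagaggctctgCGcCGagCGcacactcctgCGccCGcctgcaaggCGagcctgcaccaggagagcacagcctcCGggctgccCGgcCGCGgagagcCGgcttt
Foxr2: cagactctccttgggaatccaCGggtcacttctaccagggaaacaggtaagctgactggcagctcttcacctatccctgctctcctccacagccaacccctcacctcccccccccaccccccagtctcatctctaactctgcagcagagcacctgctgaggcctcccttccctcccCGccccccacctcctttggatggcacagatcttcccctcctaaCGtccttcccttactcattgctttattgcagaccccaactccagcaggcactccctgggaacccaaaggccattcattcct
*Foxr2* had 197 control and 171 Eed-cKO UMIs in neuron-like cells and was not called (log2 fold change 0.16 ± 0.18, edgeR adjusted p = 0.624). *Foxk2* (59 pairs), *Sox12* (47) and *Foxj3* (42) were also not called in neuron-like cells. Of the members that rose there, *Foxa2* had 12 pairs, *Foxd1* 15, *Sox21* 22, *Foxd3* 25, *Foxl2* 27 and *Foxc1* 32. No promoter was at hand for *Foxf1*, *Sox7* and *Sox18*, which also rose. The relation between CpG pairs and the calls was not tested.

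Whether neighbouring genes moved together was not tested, and *Foxc2* and *Foxl1* had too few UMIs for a test in neuron-like cells. *Foxf1* (GRCm38, chromosome 8, 121084386 to 121088144), *Foxc2* (121116171 to 121118895) and *Foxl1* (121127940 to 121130644) lie side by side, and in neuron-like cells their UMIs went from 0 to 94, from 0 to 13 and from 1 to 2. A second group on chromosome 13 holds *Foxq1* (31556134 to 31560976), *Foxf2* (31625816 to 31631403) and *Foxc1* (31806633 to 31812476), with 10 and 13, 6 and 18, and 6 and 41 UMIs, and only *Foxc1* of these 3 was called. In All-Hypo cells *Foxf1*, *Foxc2*, *Foxf2* and *Foxc1* were all called higher, while *Foxq1* was not called and *Foxl1* not tested. *Foxd3* (chromosome 4, 99656299 to 99658622) and *Foxd1* (chromosome 13, 98354242 to 98359305) lie elsewhere. *Foxl2* (chromosome 9, 98955288 to 98958543), which rose, has *Sox14* (99874106 to 99876170), which fell, on the same chromosome.

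*Foxa2*, a floor plate and midbrain factor, was raised from a measurable level in Eed-cKO neuron-like cells. Control embryos were at 2.87, 5.06 and 7.05 and Eed-cKO embryos at 2.00, 8.45 and 11.6 (log2 fold change 0.75 ± 0.21, edgeR adjusted p = 0.0132). Of the 9 Eed-cKO embryos 7 were above every control embryo and 1, F0582_E2, was below. The cells behind it differed: 69.0% of control *Foxa2* UMIs lay in a cluster led by *Irx6*, and 60.1% of Eed-cKO UMIs in the *Tfap2b*-led cluster. Its relative *Foxa1*, which also belongs to the *Irx6*-led cluster, was at 16.4, 38.3 and 52.6 against 22.5, 48 and 53.2 and was not called (log2 fold change 0.19 ± 0.19, edgeR adjusted p = 0.57). These 2 values depend on the class boundary. The *Irx6*-led cluster held 593 control and 400 Eed-cKO cells. At Leiden resolution 0.5 a larger cluster, led by *Barhl1* (986 and 537 cells), went unnamed and left the class. There *Foxa2* was at 2.55 and *Foxa1* was called at 0.71 (edgeR adjusted p = 0.00634). With the *Fox* and *Sox* genes in the clustering, a *Barhl1*-led cluster of 610 and 383 cells went unnamed. *Foxa2* was then at 2.60 and *Foxa1* was called at 0.81 (edgeR adjusted p = 0.00394).

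The SoxB2 genes *Sox21* and *Sox14*, which promote neuronal differentiation and mark particular interneurons, moved in opposite directions in neuron-like cells. *Sox21* was at 3.50, 4.24 and 8.13 in control and at 4.09, 9.42 and 16.1 in Eed-cKO embryos (log2 fold change 1.05 ± 0.24, edgeR adjusted p = 0.00297), with 5 of 9 Eed-cKO embryos above every control. *Sox14* was at 14.2, 17.4 and 19.7 in control and at 0, 9.02 and 17.1 in Eed-cKO embryos (log2 fold change -0.90 ± 0.21, edgeR adjusted p = 0.00463), with 8 of 9 below every control. Its main control cluster, led by *Vgll2*, held 43.4% of *Sox14* UMIs in control and 22.9% in Eed-cKO embryos. Of all control *Sox21* UMIs 41.0% lay in astrocyte-like cells, and astrocyte markers were higher in Eed-cKO neuron-like cells: the 11 summed to 161, 174 and 207 in control and to 191, 225 and 253 in Eed-cKO embryos, 3 of the 10 tested were called higher (*Aldoc*, *Slc1a3*, *Slc1a2*) and 0 lower, *Slc1a2* was the most abundant with 3420 and 3399 UMIs, and 0 of 11 were at 0. Of the 6 tanycyte markers 1 was higher (*Rax*) and 1 lower, with sums of 33.1, 45.0 and 53.5 against 28.6, 36.0 and 51.9. Their part in the values of *Sox21* was not tested.

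Of the SoxF genes of the vessel wall, 2 of 3 were called higher in neuron-like cells, all at few UMIs. *Sox18* had 18 control and 41 Eed-cKO UMIs, at 0, 0.636 and 0.797 against 0.387, 1.69 and 3.05 (log2 fold change 1.52 ± 0.43, edgeR adjusted p = 0.0165), and 8 of 9 Eed-cKO embryos were above every control. *Sox7* had 8 and 27 UMIs, at 0, 0.190 and 0.637 against 0, 1.16 and 2.03 (log2 fold change 1.96 ± 0.59, edgeR adjusted p = 0.0254), and 5 of 9 were above every control. *Sox17* had 8 and 21 UMIs and was not called (edgeR adjusted p = 0.107). The call of *Sox7* was lost without F4520_E2, F4690_E3, F0571_E3 or F0588_E7 (edgeR adjusted p up to 0.0568), and *Sox17* was called without F4520_E2 (edgeR adjusted p = 0.048). In the ratio of endothelial-like cells the endothelial marker UMIs would bring 62.2 UMIs of *Sox7*, 28.2 of *Sox18* and 25.7 of *Sox17* to Eed-cKO neurons, and 32.9, 33.0 and 24.8 to control neurons. The control values are above the 8, 18 and 8 UMIs counted there, so in control neurons this ratio gives more UMIs than were counted. The part of RNA from other cells in the SoxF values was not tested. The 10 endothelial markers summed to 19.4, 22.1 and 29.1 in control and to 22.4, 24.8 and 53.9 in Eed-cKO neurons, 0 of the 8 tested were called by edgeR and 0 had an unadjusted p under 0.05, *Itm2a* was the most abundant with 414 and 402 UMIs, and 1 of 10 was at 0.

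Among the genes that fell in neuron-like cells, *Foxo1* was lower in most embryos. This target of insulin signalling was at 15.6, 23.8 and 25.7 in control and at 10.3, 14.0 and 19.1 in Eed-cKO embryos (log2 fold change -0.71 ± 0.14, edgeR adjusted p = 0.000839), with 7 of 9 below every control. *Foxp2*, a factor of projection neurons, was at 116, 148 and 230 against 75.0, 120 and 157 (log2 fold change -0.47 ± 0.14, edgeR adjusted p = 0.0258), with 4 below. *Sox13*, a SoxD gene, was at 2.44, 4.86 and 7.46 against 1.80, 3.10 and 3.99 (log2 fold change -0.86 ± 0.26, edgeR adjusted p = 0.0277), with 3 below.

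The calls of *Foxp2* and *Sox13* rested on few embryos. That of *Foxp2* was lost without F4520_E2, F4530_E2 or F0588_E7 (edgeR adjusted p up to 0.102), and its log2 fold change was -0.995 at Leiden resolution 0.5. That of *Sox13* was lost without F4520_E2, F4530_E2, F4650_E1, F0652_E5 or F0652_E8 (edgeR adjusted p up to 0.0898). With the litter as the sample, the *Sox13* call was lost too. In control embryos *Foxp2* UMIs lay in clusters led by *Gbx2* (33.3%) and *Irx6* (28.9%), and in Eed-cKO embryos mainly in the latter (42.9%). Neuron markers were lower in the same class: the 10 summed to 11437, 12007 and 12431 in control and to 9833, 10763 and 10945 in Eed-cKO embryos, 3 were called lower and 0 higher, *Stmn2* was the most abundant with 128018 and 83226 UMIs, and 0 were at 0. Their part in the lower values was not tested.

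The remaining members of neuron-like cells were not called. The SoxC genes *Sox11* and *Sox4* had the most UMIs, and *Sox11* was at 1102, 1529 and 1868 against 1193, 1721 and 2399.8 (log2 fold change 0.24 ± 0.12, edgeR adjusted p = 0.196). *Sox4* was at 261, 433 and 657 against 247, 457 and 513 (log2 fold change -0.05 ± 0.16, edgeR adjusted p = 0.898). *Sox2* was at 102, 115 and 180 against 81.8, 104 and 148 (log2 fold change -0.26 ± 0.13, edgeR adjusted p = 0.189), and for both SoxC genes and *Sox2* the groups overlapped. *Sox3* was at 0.25 ± 0.18 on the log2 scale without being called (edgeR adjusted p = 0.415). For *Sox1*, at 35.5, 42.6 and 49.0 against 25.9, 33.7 and 63.8 (log2 fold change -0.18 ± 0.13, edgeR adjusted p = 0.41), the modified allele and the loss of *Eed* cannot be told apart.

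*Foxb1*, a gene of the mammillary body, was at 61.6, 86.1 and 152 in control and at 55.9, 105 and 172 in Eed-cKO neuron-like cells (edgeR adjusted p = 0.892), and *Foxj1* at 2.29, 4.49 and 6.25 against 3.66, 4.59 and 6.65 (edgeR adjusted p = 0.502). The SoxE genes had few neuronal UMIs, *Sox10* 9 and 11 (edgeR adjusted p = 0.635) and *Sox8* 17 and 27 (edgeR adjusted p = 0.247). Over the members not called, log2 fold changes ran from -0.31 for *Foxp4* to 1.77 for *Foxf2*. *Foxo3*, *Foxs1*, *Foxn4*, *Foxi2*, *Foxc2* and *Foxl1* had too few UMIs to be tested. With the unnamed cluster of 226 Eed-cKO cells, whose leading genes include a pituitary and a blood marker, added to the class, a choice made after seeing the data, *Foxj1* was called (log2 fold change 1.298, edgeR adjusted p = 0.0165), as were *Foxf2* (2.25, edgeR adjusted p = 0.025), *Foxp4* (-0.34, edgeR adjusted p = 0.0485) and *Foxc2* (edgeR adjusted p = 0.00317).

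All-Hypo cells add glia, progenitors and unnamed cells to the neurons. Called were 16 of 48 members (33.3%), 12 higher and 4 lower, against 25.8% of all genes tested (14.2% higher, 11.6% lower). The *Fox* genes made up 12 of the 16 (31 tested) and the *Sox* genes 4 (17 tested). Embryos did not overlap for 6 members higher in Eed-cKO (3.6% of all genes), which were *Foxd1*, *Foxd3*, *Foxc1*, *Foxf1*, *Foxl2* and *Sox7*, and for 0 members lower (2.61%). The median log2 fold change was 0.0834 over the members and 0.00968 over all genes. Genes called higher were 55.0% of all genes called, and 70.9% when scaled by library size alone, which also turned the sign of *Foxb2*, *Foxp1*, *Foxj2* and *Foxr2*, among others, none of them called.

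Markers of other cell types moved in All-Hypo cells as well. The 7 leptomeningeal markers summed to 3.85, 7.71 and 26.5 in control and to 38.8, 64.4 and 165 in Eed-cKO embryos (6 called higher, most abundant *Col1a2* with 188 and 1484 UMIs). The 8 markers of pericytes or smooth muscle summed to 7.78, 9.85 and 23.7 against 41.8, 68.7 and 125 (5 called higher, most abundant *Tagln* with 91 and 858 UMIs), and the 10 endothelial markers to 23.9, 27.8 and 36.3 against 36.6, 54.0 and 82.9 (3 called higher, most abundant *Itm2a* with 605 and 1135 UMIs). The 5 choroid plexus markers summed to 6.64, 7.15 and 12.4 against 13.6, 15.4 and 24385 (4 called higher, most abundant *Ttr* with 71 and 62615 UMIs), and the 10 microglia or macrophage markers to 1.203, 3.11 and 5.19 against 1.95, 6.04 and 31.2 (2 called higher, most abundant *Pf4* with 6 and 88 UMIs), and 5 of 5 pituitary and 1 of 3 blood markers were called higher. In these lists 0 markers were called lower and 0 were at 0. Their part in the higher values of members was not tested.

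*Foxf1* went from 2 UMIs, both in F4650_E1, to 181 in All-Hypo cells (0, 0 and 0.392 against 1.53, 4.83 and 8.27), a ratio of 98.4 with a 95% counting interval of 26.9 to 819 (edgeR adjusted p = 3.15e-08). *Foxd3* went from 0 to 92 UMIs, a rise of at least 33.4-fold (edgeR adjusted p = 8.39e-07), and *Foxc2* from 0 to 28, a rise of at least 10.2-fold (edgeR adjusted p = 0.000484). *Foxl2* went from 3 UMIs, all in F4690_E3, to 106, a ratio of 38.4 with an interval of 12.8 to 189 (edgeR adjusted p = 6.81e-07). Each of these genes had more UMIs in All-Hypo than in neuron-like cells, so other All-Hypo cells carried a part of them.

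*Foxc1* was at 0, 0.161 and 0.810 in control and at 2.82, 6.22 and 11.5 in Eed-cKO All-Hypo cells (log2 fold change 4.40 ± 0.48, edgeR adjusted p = 6.56e-07). *Foxd1* was at 0.642, 2.05 and 2.92 against 7.67, 14.6 and 19.9 (log2 fold change 2.83 ± 0.26, edgeR adjusted p = 3.37e-08). *Sox7* was at 0, 0.335 and 0.972 against 1.16, 4.34 and 9.21 (log2 fold change 3.38 ± 0.52, edgeR adjusted p = 4.27e-05). No Eed-cKO embryo overlapped the controls for these 3 genes. Of the Eed-cKO *Sox7* UMIs, 11.1% lay in tanycyte-like cells, the glia that line the third ventricle, and 80.8% in endothelial-like cells.

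Further genes rose in All-Hypo cells by smaller or less even steps. *Foxa2* was called as in neurons (log2 fold change 0.74 ± 0.22, edgeR adjusted p = 0.0138), and *Sox18* at 0, 0.591 and 1.05 against 0.308, 1.53 and 4.02 (log2 fold change 1.495 ± 0.47, edgeR adjusted p = 0.0226) lost its call without F4530_E2 (edgeR adjusted p = 0.053). *Foxf2* was at 0, 0.0696 and 1.12 against 0.476, 0.805 and 3.07 (log2 fold change 1.99 ± 0.66, edgeR adjusted p = 0.0294). Its control UMIs were mostly those of F4650_E2, without which its log2 fold change was 3.54, and its call was lost without F4520_E2, F4520_E4, F4530_E2, F4690_E3 or F0588_E7 (edgeR adjusted p up to 0.0807).

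The cilia regulator *Foxj1* and the cell cycle regulator *Foxm1* were called in All-Hypo cells. *Foxj1* was at 11.8, 23.5 and 86.3 against 19.95, 59.6 and 114 (log2 fold change 0.95 ± 0.35, edgeR adjusted p = 0.0456), and *Foxm1* at 1.17, 3.07 and 4.54 against 1.95, 4.69 and 10.1 (log2 fold change 0.90 ± 0.33, edgeR adjusted p = 0.0459). The groups overlapped for both genes. For *Foxj1* the highest control embryo was F4650_E1, without which the log2 fold change was 1.53, and the call was lost without any 1 of F4520_E2, F4520_E4, F4530_E2, F4650_E2, F4690_E3, F0582_E7, F0589_E1, F0652_E5, F0652_E8 and F502_E6 (edgeR adjusted p up to 0.11). That of *Foxm1* was lost without any 1 of F4530_E2, F4650_E2, F4690_E3, F0582_E2, F0582_E7, F0588_E7, F0589_E1 and F0652_E8 (edgeR adjusted p up to 0.124), and also with the litter as the sample.

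The cells that carry *Foxj1* and *Foxm1* differed in number by an amount that depends on the clustering. Ependymal-like cells numbered 41 in control and 191 in Eed-cKO embryos at Leiden resolution 1, 41 and 45 at resolutions 0.5 and 2, and 41 and 44 with the *Fox* and *Sox* genes in the clustering. Cycling progenitor-like cells numbered 149 and 203, 131 and 160 (resolution 0.5), 54 and 131 (resolution 2), and 132 and 165. The 6 ependymal markers summed to 45.1, 75.5 and 225 in control and to 69.1, 138 and 278 in Eed-cKO embryos (1 called higher, *Mlf1*, also the most abundant, with 880 and 1678 UMIs), and the 8 cycling markers to 26.6, 40.6 and 70.4 against 43.5, 101 and 245 (8 called higher, most abundant *Top2a* with 383 and 1128 UMIs), with 0 at 0. Of the Eed-cKO *Foxj1* UMIs 118 lay in choroid plexus-like cells and 159 in the unnamed cluster of 226 cells, which had no control cells. The part of cell numbers in both calls was not tested.

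Lower in All-Hypo cells were *Foxp2*, *Foxp4*, *Sox14* and *Sox12*. *Foxp2* was at 110, 142 and 225 against 69.5, 101 and 141 (log2 fold change -0.63 ± 0.16, edgeR adjusted p = 0.00541), and *Sox14* at 12.4, 16.5 and 18.6 against 0, 6.81 and 16.5 (log2 fold change -0.98 ± 0.25, edgeR adjusted p = 0.00566). *Foxp4*, at -0.40 ± 0.11 on the log2 scale (edgeR adjusted p = 0.0105), and *Sox12*, at -0.26 ± 0.09 (edgeR adjusted p = 0.0461), moved less, and for these 4 genes the groups overlapped. The call of *Sox12* was lost without F4520_E2, F4520_E4, F4530_E2, F4650_E1, F4650_E2, F0652_E8 or F502_E9 (edgeR adjusted p up to 0.0871), and also with the litter as the sample. *Sox10*, which marks oligodendrocyte precursors, was at 1.76, 5.80 and 12.6 against 0, 4.82 and 7.90 and was not called (log2 fold change -0.55 ± 0.41, edgeR adjusted p = 0.357), and *Foxo3*, *Foxs1*, *Foxi2* and *Foxl1* were not tested.

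Neuron markers were lower in All-Hypo cells too. The 10 summed to 10119, 11348.5 and 12058 in control and to 8306, 9000 and 9705 in Eed-cKO embryos, 4 were called lower (*Syt1*, *Gap43*, *Stmn2*, *Elavl3*) and 0 higher, and *Stmn2* was the most abundant with 134662 and 91905 UMIs. Of 6 oligodendrocyte precursor markers 3 were lower and 0 higher, with sums of 172, 196 and 275 against 83.2, 137 and 170 (most abundant *Lhfpl3*, 3219 and 1591 UMIs). Of 11 astrocyte markers 8 were higher and 0 lower, with sums of 1007, 1298 and 2724 against 1432, 2030 and 3002 (most abundant *Fabp7*, 22938 and 21517 UMIs), and of 6 tanycyte markers 4 were higher and 0 lower, with sums of 41.4, 56.3 and 67.4 against 121, 137 and 204 (most abundant *Crym*, 272 and 2862 UMIs). In each list 0 were at 0. Their part in the values of *Foxp2*, *Foxp4*, *Sox14*, *Sox12* and *Sox10* was not tested.

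In astrocyte-like cells of Eed-cKO embryos, all 3 SoxB1 genes and *Sox21* fell, while *Foxc1*, *Foxf1* and *Foxo1* were among those that rose. Called were 8 of 30 members (26.7%), 4 higher and 4 lower, against 7.42% of 11683 genes tested (4.46% higher, 2.96% lower). All 4 called of 19 *Fox* genes were higher, and all 4 called of 11 *Sox* genes were lower, with TMM as with library size scaling, where *Sox21* was no longer called. Embryos did not overlap for 0 members in either direction, against 0.865% of all genes higher and 0.616% lower. The median log2 fold change was -0.279 over the members and -0.0549 over all genes. Of the 11 astrocyte markers 3 were called higher and 3 lower, with sums of 17491, 25796 and 35202 against 14637, 22349 and 32449 (most abundant *Fabp7*, 18439 and 11958 UMIs, and 0 at 0). Most Eed-cKO cells of the class formed a cluster of their own at Leiden resolution 2 (212 cells, with 2 control cells), and the part of this in the result was not tested.

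*Sox2*, the core factor of neural progenitors and astrocytes, was at 465, 855 and 1025 in control and at 379, 439 and 708 in Eed-cKO astrocyte-like cells (log2 fold change -0.78 ± 0.17, edgeR adjusted p = 0.00126), with 6 of 9 below every control. *Sox1* was at 81.5, 176 and 240 against 29.7, 85.7 and 141 (log2 fold change -1.04 ± 0.23, edgeR adjusted p = 0.00198), with 4 below, and here the *Sox1*-Cre allele and the loss of *Eed* cannot be told apart. *Sox3* was at 29.6, 56.4 and 65.4 against 0, 18.4 and 46.9 (log2 fold change -1.42 ± 0.36, edgeR adjusted p = 0.00641), with 7 below. The SoxB1 genes thus had the same direction in all 3 cases, with overlap of the groups in each.

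*Sox21*, the SoxB2 gene, was at 84.5, 144 and 209 against 35.5, 71.5 and 161 in astrocyte-like cells (log2 fold change -0.72 ± 0.24, edgeR adjusted p = 0.0496), with 7 of 9 below every control. This was close to the threshold, and the call was lost without any 1 of F4520_E2, F4520_E4, F4530_E2, F4650_E1, F0571_E3, F0582_E2, F0582_E7, F0589_E1, F0652_E5, F502_E6 and F502_E9 (edgeR adjusted p up to 0.167). *Sox4* was at 178, 252 and 383 against 71.1, 172 and 245 and was just outside it (log2 fold change -0.59 ± 0.20, edgeR adjusted p = 0.0566). *Sox11* and *Sox8* were not called, with log2 fold changes of -0.25 ± 0.16 (edgeR adjusted p = 0.448) and -0.62 ± 0.34 (edgeR adjusted p = 0.35).

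*Foxc1* was nearly silent in control astrocyte-like cells, with 2 UMIs, both in F4530_E2, against 73 in Eed-cKO cells. Levels were 0, 0 and 11.9 against 11.7, 46.4 and 75.1, a ratio of 39.6 with a 95% counting interval of 10.6 to 333 (edgeR adjusted p = 3.43e-07), with 8 of 9 Eed-cKO embryos above every control. *Foxf1* went from 0 to 24 UMIs in 8 Eed-cKO embryos (0, 15.2 and 35.2), at least 8.67-fold higher (edgeR adjusted p = 0.000571). Leptomeningeal markers were also higher in these cells: the 7 markers summed to 15.1, 31.7 and 79.3 in control and 35.2, 182 and 282 in Eed-cKO embryos, 3 of 5 tested were called (*Dcn*, *Lum*, *Col1a2*), *Col1a2* was the most abundant with 27 and 134 UMIs, and 0 of 7 were at 0. In the ratio of leptomeningeal-like cells they would bring 5.95 UMIs of *Foxc1* to the Eed-cKO cells, where 73 were counted, and 1.82 to control cells, where 2 were counted. In the ratio of endothelial-like cells, endothelial marker UMIs would bring 4.87 and 3.15, the latter above the 2 counted. The 10 endothelial markers summed to 78.5, 81.9 and 124 against 70.3, 190 and 282, with 1 of 3 tested called, *Itm2a*, also the most abundant (94 and 251 UMIs), and 1 of 10 at 0. The 8 markers of pericytes or smooth muscle summed to 17.8, 53.6 and 61.6 against 35.5, 171 and 326, with 2 of 3 tested called higher, *Tagln* as the most abundant (23 and 116 UMIs) and 0 of 8 at 0. The part of such cells or their RNA in the rise of *Foxc1* and *Foxf1* was not tested.

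*Foxo1* was at 19.6, 37.7 and 43.1 in control and at 37.6, 70.3 and 154 in Eed-cKO astrocyte-like cells (log2 fold change 1.01 ± 0.30, edgeR adjusted p = 0.0263), with 6 of 9 above every control. Its call was lost without F4520_E4, F4690_E3, F0571_E3, F0652_E5 or F502_E6 (edgeR adjusted p up to 0.0706). *Foxd1*, called in neurons, was at 6.04, 26.7 and 47.4 against 0, 48.7 and 70.3 here (log2 fold change 0.89 ± 0.38, edgeR adjusted p = 0.183), and *Foxj1* had 208 UMIs in each genotype (edgeR adjusted p = 0.909).

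**Figure D4:**
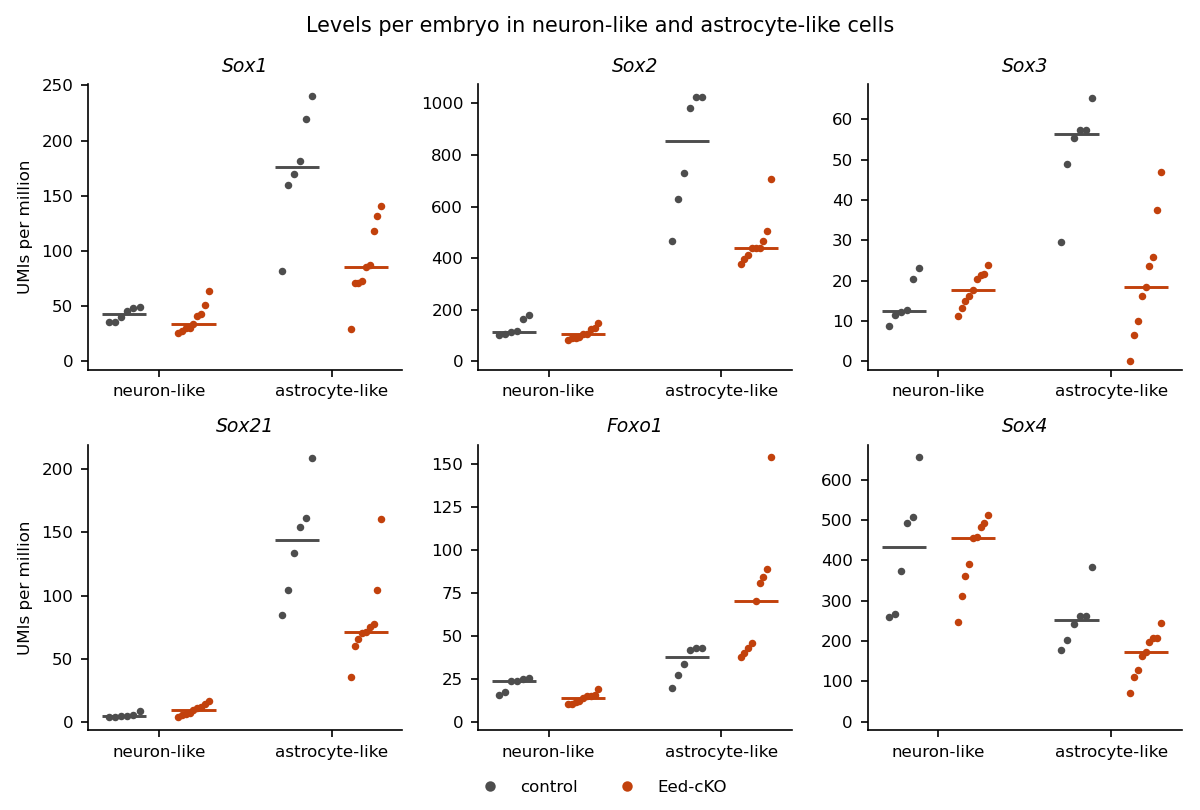
Level of *Sox1*, *Sox2*, *Sox3*, *Sox21*, *Foxo1* and *Sox4* in CPM (UMIs on the per-million scale) in each embryo (points) with the group median (line), for neuron-like and astrocyte-like cells of 6 control and 9 Eed-cKO embryos. *Foxo1* fell from a median of 23.8 to 14.0 in neuron-like cells and rose from 37.7 to 70.3 in astrocyte-like cells.

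The astrocyte-like values depend on where the class ends. At Leiden resolution 0.5, and with the *Fox* and *Sox* genes in the clustering, cells of the tanycyte-like cluster (77 control and 254 Eed-cKO cells, and 38 and 128) and of the ependymal-like cluster (0 and 146, and 0 and 147) fell into this class, and *Sox3* was no longer called, at -0.15 (edgeR adjusted p = 0.785) and -0.32 (edgeR adjusted p = 0.421). *Foxo1* was at 0.49 (edgeR adjusted p = 0.175) at resolution 0.5. *Foxj1* was called higher in both cases, at 0.71 (edgeR adjusted p = 0.01) and 0.94 (edgeR adjusted p = 0.000837), as were *Foxl2* (edgeR adjusted p = 0.00476 and 0.00262) and *Sox7* (edgeR adjusted p = 0.00116 and 0.0134), and *Sox8* was called lower at resolution 0.5 (-0.86, edgeR adjusted p = 0.0461). The tanycyte markers also differed within the class, with sums of 51.3, 88.9 and 160 in control and 113, 747 and 1067 in Eed-cKO embryos and *Crym* alone going from 84 to 944 UMIs (1 of 4 tested called higher, 0 of 6 at 0), and their part in the result was not tested.

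The genotype effect differed between astrocyte-like and neuron-like cells for 7 of 47 members (14.9%, against 3.04% of 15348 genes), by edgeR's test of the interaction, in which each embryo had its own term. Of the 5 SoxB genes 3 were among them, while *Sox2* and *Sox14* (edgeR adjusted p = 0.804) were not. *Sox21* was higher in Eed-cKO neurons, where astrocyte markers were higher too, and lower in Eed-cKO astrocytes. Astrocyte-like minus neuron-like, the difference of log2 fold changes was -1.81 ± 0.32 for *Sox21* (edgeR adjusted p = 4.75e-05), -1.71 ± 0.40 for *Sox3* (edgeR adjusted p = 0.00474) and -0.84 ± 0.25 for *Sox1* (edgeR adjusted p = 0.0417). *Foxo1* went the other way, down in neurons and up in astrocytes, with a difference of 1.68 ± 0.33 (edgeR adjusted p = 0.000369). The log2 fold change of *Foxd1* was larger in neuron-like than in astrocyte-like cells, with a difference of -3.11 ± 0.54 (edgeR adjusted p = 3.56e-05). This contrast says nothing about other classes.

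A smaller difference between these classes was that of *Sox4* (-0.61 ± 0.18, edgeR adjusted p = 0.0368). For *Sox2*, lower in astrocyte-like cells, the difference was not called (-0.49, edgeR adjusted p = 0.0782), nor was it for *Foxc1* (2.20, edgeR adjusted p = 0.608). The call of *Sox1* was lost without any 1 of F4520_E2, F4530_E2, F4650_E1, F4690_E3, F0571_E3, F0582_E2, F0582_E7, F0588_E7 and F0589_E1 (edgeR adjusted p up to 0.218). That of *Sox4* was lost without F4520_E2, F4530_E2, F4690_E3, F0571_E3, F0582_E7, F0588_E7, F0652_E5 or F502_E6 (edgeR adjusted p up to 0.129). With the *Fox* and *Sox* genes in the clustering, the difference of *Sox3* was -0.46 (edgeR adjusted p = 0.41) and that of *Sox4* -0.30.

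Non-neural cells, which the paper takes to be outside the reach of *Sox1*-Cre, express many forkhead and SoxF genes in both genotypes. With edgeR 0 of 37 members were called, against 2.59% of 12397 genes (1.35% higher, 1.24% lower), while 7 members were at an unadjusted p under 0.05, DESeq2 called 2 (*Foxq1* and *Sox18*) and limma 0. Embryos did not overlap for 0 members, against 0.29% of all genes higher and 0.54% lower in Eed-cKO embryos. The median log2 fold change was -0.0139 over the members and -0.0404 over all genes. The class was shallower, with 28 cells in the lowest control and 9 in the lowest Eed-cKO embryo, and a p that misses the threshold does not show that levels were equal.

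The mesenchymal genes were at high levels in control non-neural cells already. *Foxc1* was at 156, 233 and 471 in control and at 224, 369 and 449 in Eed-cKO embryos (log2 fold change 0.34 ± 0.22, edgeR adjusted p = 0.566), and *Foxc2* at 0, 43.9 and 167 against 86.5, 156 and 201 (log2 fold change 1.07 ± 0.40, edgeR adjusted p = 0.188). *Foxd1* was at 21.8, 86.5 and 189 against 86.5, 170 and 215 (log2 fold change 0.57 ± 0.32, edgeR adjusted p = 0.452). These 3 are genes of leptomeningeal-like cells, of which Eed-cKO embryos had more (268 against 89). *Foxl2* was at 18.6, 26.4 and 42.6 against 0, 10.7 and 36.5 (log2 fold change -1.13 ± 0.44, edgeR adjusted p = 0.216), and *Foxf1* at 6.69, 14.9 and 43.5 against 0, 14.3 and 24.3 (log2 fold change -0.24 ± 0.43, edgeR adjusted p = 0.902). All groups overlapped.

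The vessel genes were not called either. *Sox18* was at 134, 214 and 355 against 58.6, 134 and 197 (log2 fold change -0.83 ± 0.24, edgeR adjusted p = 0.0646), *Foxq1* at 157, 176 and 305 against 24.3, 135 and 199 (log2 fold change -0.67 ± 0.22, edgeR adjusted p = 0.118), and *Foxf2* at 167, 220 and 284 against 36.5, 170 and 216 (log2 fold change -0.43 ± 0.21, edgeR adjusted p = 0.363). *Sox17* was at -0.42 ± 0.22 on the log2 scale (edgeR adjusted p = 0.397), and *Sox7*, with levels of 106, 185 and 334 against 48.6, 256 and 387, at 0.32 ± 0.29 (edgeR adjusted p = 0.717). Eed-cKO non-neural cells held fewer endothelial-like cells (123 against 150) among more cells in all. The 10 endothelial markers summed to 4315, 5180 and 6919 in control and to 3188, 4142 and 4588 in Eed-cKO embryos (2 called lower, *Ly6c1* and *Esam*, most abundant *Itm2a* with 2398 and 3194 UMIs), the 7 leptomeningeal markers to 18.7, 5230 and 8278 against 6982, 11789 and 17456 (1 called higher, *Lum*, most abundant *Col1a2* with 2884 and 10976 UMIs), and the 10 microglia or macrophage markers to 1176, 3417 and 6337 against 0, 1524 and 4110 (6 called lower, most abundant *Pf4* with 836 and 1502 UMIs). The part of this make-up in the values of non-neural cells was not tested. Without F4530_E2 *Sox18* was called (log2 fold change -0.93, edgeR adjusted p = 0.0347), and no other left-out embryo brought a member past the threshold.

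The genotype effect differed between non-neural and neuron-like cells for 7 of 49 members (14.3%, against 1.51% of 15711 genes) by the edgeR interaction test. All 4 mesenchymal or vessel forkhead genes among them rose in neurons more than in non-neural cells. Non-neural minus neuron-like, the difference of log2 fold changes was -6.25 for *Foxf1* (edgeR adjusted p = 6.58e-06) and -5.60 for *Foxl2* (edgeR adjusted p = 4.83e-05). These 2 are fitted values against control neurons with 0 or 2 UMIs, and their back-calculated SE is left out. The difference was -3.28 ± 0.44 for *Foxd1* (edgeR adjusted p = 2.65e-05) and -2.40 ± 0.53 for *Foxc1* (edgeR adjusted p = 0.0119). *Sox18* differed likewise, by -2.39 ± 0.44 (edgeR adjusted p = 0.00199). *Foxo1* and *Foxp2*, lower in Eed-cKO neurons, had positive differences of 0.96 ± 0.22 (edgeR adjusted p = 0.0163) and 1.24 ± 0.32 (edgeR adjusted p = 0.0389), the first lost without any 1 embryo other than F4650_E2, F4690_E3, F0582_E2, F502_E6 and F502_E9 (edgeR adjusted p up to 0.0878) and the second without any 1 other than F4650_E2 and F0582_E7 (edgeR adjusted p up to 0.175). *Sox7* (edgeR adjusted p = 0.17), *Foxf2* (edgeR adjusted p = 0.117), *Foxc2* (edgeR adjusted p = 0.159) and *Sox17* (edgeR adjusted p = 0.159) were not called.

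Cycling progenitor-like, ependymal-like and tanycyte-like cells were not tested per embryo and are given by their UMIs and pooled level in CPM. In cycling progenitor-like cells, *Foxf1* had 0 control and 18 Eed-cKO UMIs, *Foxc1* 1 and 25, *Foxd1* 13 and 35 (20.1 and 31.1 CPM), *Foxm1* 47 and 122 (72.7 and 108 CPM), and *Sox10* 223 and 133 (345 and 118 CPM). This cluster, led by *Gpr17*, also took in oligodendrocyte precursor-like cells, which formed a cluster of 99 control and 76 Eed-cKO cells at Leiden resolution 2, apart from 54 and 131 cycling progenitor-like cells. In ependymal-like cells, which line the ventricle, *Foxf1* had 0 and 23, *Foxc1* 0 and 32, *Foxl2* 0 and 17, and *Foxj1* 664 and 1130. The pooled level of *Foxj1* there was 2803 CPM in control and 1143 in Eed-cKO embryos, in a cluster of which 146 of the 191 Eed-cKO and 0 of the 41 control cells were astrocyte-like at resolution 0.5. Tanycyte-like cells, 79 in control and 254 in Eed-cKO embryos, had 5 and 84 UMIs of *Sox7* (19.0 and 86.0 CPM), 4 and 29 of *Foxd1* (15.2 and 29.7 CPM), and 83 and 144 of *Sox1*, whose pooled level was lower in Eed-cKO cells (316 and 147 CPM). In endothelial-like cells *Foxf1* had 28 and 30 UMIs (33.5 and 40.4 CPM), *Foxl2* 37 and 19 (44.2 and 25.6 CPM), *Sox17* 246 and 254 (294 and 342 CPM), and *Sox7* 326 and 614 (390 and 826 CPM). A test of this class alone, chosen after seeing the data, used 6 control and 7 Eed-cKO embryos. By edgeR it called 0 of 28 members, with 3 at an unadjusted p under 0.05, and only 18 genes of the whole table.

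By the rule of 3 or fewer control UMIs over all cells, *Foxd3* was the 1 member silent in control and detected in Eed-cKO embryos. Its 98 UMIs came from 70 cells of all 9 Eed-cKO embryos, with 3 UMIs in the lowest embryo, 10 at the median and 23 in the highest. This is 1 of 52 members (1.92%), against 1.43% of all genes (236 of 16510), while 0 members and 0.436% of all genes were silent in Eed-cKO and detected in control. Just outside the rule were *Foxl1*, with 6 control and 12 Eed-cKO UMIs, *Foxi2*, with 7 and 4, and *Foxo3*, with 7 and 7. Without F4650_E1, *Foxl1* also met it, which made 2 members.

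Within the neural classes the list was longer, for the members and for all genes. Control UMIs of *Foxf1* and *Foxl2* lay mostly in endothelial-like cells, and those of *Foxc2* mostly in leptomeningeal-like cells. The reason for the longer lists was not tested. In All-Hypo and in neuron-like cells *Foxd3*, *Foxf1*, *Foxc2* and *Foxl2* were silent in control and detected in Eed-cKO embryos, 4 of 52 members (7.69%) in each, against 2.33% and 2.2% of all genes. The reverse list held *Foxo3* in All-Hypo cells (0.697% of all genes) and *Foxo3*, *Foxs1* and *Foxi2* in neuron-like cells (1.68%), each with 6 or fewer control UMIs.

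In astrocyte-like cells 6 members (11.5%, against 4.48% of all genes) met the rule. They were *Foxc1* with 2 control and 73 Eed-cKO UMIs, *Foxf1* with 0 and 24, *Foxl2* with 1 and 12, *Sox7* with 1 and 9, *Foxd3* with 0 and 5, and *Foxd2* with 1 and 4. The reverse list held *Foxm1*, *Sox14* and *Foxr2* (3.06% of all genes). In non-neural cells the members were *Foxd3* with 0 and 6 UMIs, the latter in 2 embryos, *Sox21* with 3 and 5, and *Foxo3* with 3 and 4 (5.77%, against 4.35%), and the reverse list held *Foxa2* with 4 and 3 (1.88%). At counts this low the counting error is large, and the classes differ in depth, which sets how many genes stay at or under 3 UMIs.

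Genes that share tissues with the raised members moved as follows in neuron-like cells. Of 6 neural crest genes tested 4 were higher and 0 lower, among them *Tfap2b*, at 1.04, 6.38 and 11.9 in control and 52.5, 105 and 177 in Eed-cKO embryos, and *Twist1*, with 2 and 600 UMIs. Of 8 genes of V2 interneurons of the spinal cord 4 were higher (*Gata2*, *Gata3*, *Tal1*, *Lhx3*) and 1 lower (*Lmo4*), and of 8 floor plate genes 3 were higher (*Ntn1*, *Slit1*, *Nkx2-2*) and 1 lower. Of 7 oligodendrocyte lineage genes 1 was higher (*Pdgfra*) and 2 lower, *Lhfpl3* among them. In astrocyte-like cells 5 of 5 neural crest genes were higher, as were 4 of 5 V2 genes and 1 of 7 floor plate genes (*Nkx6-1*), and of 7 oligodendrocyte genes 1 was higher and 1 lower. In All-Hypo cells 7 of 8 neural crest genes were higher, 6 of 9 V2 genes were higher and 1 lower, 3 of 8 floor plate genes were higher and 1 lower, and of the 8 oligodendrocyte genes 0 were higher and 4 lower. Of all genes tested 7.61% were higher and 6.51% lower in neuron-like, 4.46% and 2.96% in astrocyte-like, and 14.2% and 11.6% in All-Hypo cells. In non-neural cells edgeR called 0 of 5 neural crest, 0 of 4 V2 and 0 of 6 floor plate genes, where 3, 0 and 2 had an unadjusted p under 0.05, and 1 of 5 oligodendrocyte genes was higher (*Pdgfra*). Of all genes tested in these cells 1.35% were higher and 1.24% lower.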

How the data were processed

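Single cells of 48 ddSEQ libraries from the hypothalamus of 15 embryos at embryonic day 18.5 were analysed from the UMI counts that the authors deposited. Per the submitters' notes, reads were aligned to mm10 with STAR 2.5.2b and SAMtools 1.3. Counts were summed per embryo and class and tested with edgeR 4.0.16 (TMM, quasi-likelihood, Benjamini-Hochberg over all genes with at least 15 UMIs over the embryos and 2 in 1 embryo, embryos with at least 5 cells of the class). The edgeR test of each class and the interaction with astrocyte-like cells were run on simulated counts, with the same spread for all genes. The interaction with non-neural cells and the tests of other programs were not simulated. Clustering in scanpy 1.11.5 used counts scaled to 10000 per cell, 2000 variable genes without the *Fox* and *Sox* genes, values clipped at 10 SD, 30 components, 15 neighbours and Leiden resolution 1 (leidenalg 0.10.2). A class needed at least 3 raised markers (2-fold, in 10% of cells). The naming rule and neighbour method were settled after the clusters were seen, and the members, markers and lists were chosen with earlier results of these data known. No cell was removed in the main results, and doublets were treated in an alternative that left out the 6% of cells with the highest Scrublet score. DESeq2 1.42.0, limma 3.58.1 (R 4.3.3), other scalings, filters, covariates, samples and clusterings were the alternatives.

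Full values were given for members silent in control with at least 30 Eed-cKO UMIs, for up to 10 called members per class with the largest fold change, and, called or not, for 19 further members (*Sox1*, *Sox2*, *Sox3*, *Sox21*, *Sox14*, *Sox10*, *Sox8*, *Sox4*, *Sox11*, *Sox17*, *Sox18*, *Foxa1*, *Foxa2*, *Foxb1*, *Foxj1*, *Foxp2*, *Foxo1*, *Foxc1*, *Foxf2*). Others were named after their values were seen. A further member is part of the counts but not reported here. Floors (3 counts over a group) and 95% intervals cover counting error only. Positions and exon overlaps came from the GRCm38 annotation: the exons of 18 members overlap another gene, and those of 4 (*Sox8*, *Foxb1*, *Foxl2*, *Foxp3*) a gene of the table on the opposite strand, whose reads cannot be told apart.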

Additional observations from a re-analysis of the deposited data

Results flagged for a closer look

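In 22 of 205 groups of embryos 1 embryo lay far from the others of its genotype. The cut-off used flags about 1 in 20 groups by chance where values are normally distributed, which levels from few UMIs are not. A group with UMIs in 1 embryo alone is always flagged, and All-Hypo cells include the neuron-like cells. The number of flagged groups therefore cannot be compared with chance. Levels below are in CPM, with the nearest other embryo after each, and no cause was tested.

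In All-Hypo cells, control embryo F4650_E1 was highest for *Foxf1* at 0.3922 (next 0) and for *Foxj1* at 86.28 (next 27.93), F4650_E2 for *Foxf2* at 1.124 (next 0.1957) and F4690_E3 for *Foxl2* at 0.4176 (next 0). The shallowest Eed-cKO embryo, F0582_E2, was lowest for *Foxa2* at 1.535 (next 6.322) and highest for *Foxl2* at 6.139 (next 4.043).

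In neuron-like cells, F4650_E2 was highest of the controls for *Foxf2* at 0.7522 (next 0.2073) and F4690_E3 for *Foxl2* at 0.3048 (next 0). Among Eed-cKO embryos F0582_E2 was highest for *Foxf2* at 3.99 (next 1.143) and for *Sox10* at 1.995 (next 0.9659).

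Astrocyte-like cells had 7 such groups. The highest control embryos were F4520_E4 for *Foxb1* at 150.4 (next 64.08), F4530_E2 for *Foxc1* at 11.86 (next 0) and F4650_E2 for *Foxp2* at 129.8 (next 41.49). The highest Eed-cKO embryos were F0571_E3 for *Foxb1* at 94.91 (next 50.65), F502_E6 for *Foxo1* at 154.0 (next 88.98), F0582_E2 for *Foxp2* at 112.9 (next 50.65) and F0652_E8 for *Sox2* at 708.1 (next 503.9).

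In non-neural cells, F4650_E2 was highest of the controls for *Foxa1* at 21.78 (next 3.097) and *Foxj1* at 90.21 (next 6.21), and F4650_E1 for *Sox2* at 50.14 (next 18.66). Of the Eed-cKO embryos F0652_E5 was highest for *Foxa1* at 23.88 (next 11.73) and F502_E6 for *Foxj1* at 43.26 (next 6.921).

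The genotype effect differed between classes for the 13 pairs of a member and a class given here, by edgeR's test of the interaction. Astrocyte-like minus neuron-like, they included log2 differences of -3.114 for *Foxd1*, -1.806 for *Sox21*, -1.705 for *Sox3*, -0.8427 for *Sox1*, -0.6134 for *Sox4* and 1.684 for *Foxo1*. Non-neural minus neuron-like, they were -6.247 for *Foxf1*, -5.603 for *Foxl2*, -3.279 for *Foxd1*, -2.397 for *Foxc1*, -2.394 for *Sox18*, 0.9557 for *Foxo1* and 1.237 for *Foxp2*.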

How the results depend on the processing

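Counts of called members were mostly within 1.5 times the reported ones. Exceptions were the median log-CPM filter, with 9 in All-Hypo (36 tested) and 7 in neuron-like cells (31 tested), where fewer genes were tested, and limma-TREAT, with 5 in astrocyte-like cells. In non-neural cells, where 0 were called, DESeq2 called 2 (*Foxq1*, *Sox18*), the library as the sample 2 (*Foxc2*, *Sox18*), and leaving out the library with the most cells, chosen after seeing the data, 1 (*Sox18*). Endothelial-like or leptomeningeal-like cells alone, also chosen after seeing the data, gave 0 calls of 28 members by edgeR. Over all genes these 2 tests called only 18 and 118. They rested on 6 control and 7 Eed-cKO embryos for endothelial-like cells, and on 4 and 8 for leptomeningeal-like cells. The cause was not tested. With a limit of 10 control UMIs, more than 3 Eed-cKO UMIs still counting as detected, the silent list held 4 members (*Foxd3*, *Foxl1*, *Foxi2*, *Foxo3*), and over All-Hypo cells alone also 4. *Foxi2* (7 control and 4 Eed-cKO UMIs) and *Foxo3* (7 and 7) were under 10 in both genotypes. Leaving out each embryo in turn gave 11 to 16 calls in All-Hypo, 11 to 14 in neuron-like, 4 to 8 in astrocyte-like and 0 to 1 in non-neural cells, 4 to 8 and 5 to 8 for the astrocyte and non-neural interactions, and 1 to 2 silent members. The 51 calls counted over classes and interactions were lost in 116 of 764 fits with 1 embryo left out. Under the other alternatives they had 538 values, of which 495 kept direction and call, 43 lost the call and 0 reversed. Of the 51 calls 30 were lost in neither, among them all those without overlap of the groups. Alternatives other than left-out embryos also ended calls. In All-Hypo cells these were DESeq2 and leaving out the library with the most cells for *Foxj1* (adjusted p up to 0.122), limma-TREAT, litter as the sample, sex as a covariate and leaving out cells of high doublet score (doublets below) for *Foxm1* (up to 0.123), library-size scaling, limma-TREAT, the median filter, litter and sex for *Sox12* (up to 0.506), and doublets for *Foxf2* (0.0589). In neuron-like cells they were DESeq2 and limma-TREAT for *Foxp2* (up to 0.294), limma-TREAT and litter for *Sox13* (up to 0.325), and limma-TREAT and Leiden resolution 0.5 for *Sox7* (up to 0.0546). In astrocyte-like cells limma-TREAT and resolution 0.5 ended the call of *Foxo1* (up to 0.175), and library-size scaling, DESeq2 and limma-TREAT that of *Sox21* (up to 0.209). Clustering with the members and resolution 0.5 ended that of *Sox3* (up to 0.785). Among interactions with astrocyte-like cells, calls ended for *Sox3* with the members in the clustering (0.41) and for *Sox4* with doublets and that clustering (up to 0.259). Among those with non-neural cells, calls ended for *Foxo1* with doublets (0.0604) and for *Foxp2* with library-size scaling and doublets (up to 0.127). Limma-TREAT ended the calls of *Foxp2* (adjusted p = 0.0511) and *Foxp4* (adjusted p = 0.191) in All-Hypo cells, and of *Foxa2* (adjusted p = 0.071) in neuron-like cells. Alternatives also made calls. *Foxc2* was called in neuron-like cells with no gene filter (0.00579) and with the unnamed Eed-cKO cluster added (0.00317). *Foxf2* was called in neuron-like cells by limma-TREAT, with the library as the sample, at resolution 0.5, without the library with the most cells and with the unnamed Eed-cKO cluster added (adjusted p from 0.00659 to 0.0298), *Sox4* in astrocyte-like cells with no gene filter, the library as the sample, sex as a covariate and without that library (from 0.0171 to 0.047), and *Foxk2* in All-Hypo cells by DESeq2, with the library as the sample and without that library (from 0.00445 to 0.0478). *Sox2* was called lower in neuron-like cells at resolution 0.5 (0.0449). Library-size scaling moved the share of called genes that were higher from 55.0% to 70.9% in All-Hypo and from 53.9% to 64.8% in neuron-like cells. No paired analysis was possible because no litter held both genotypes and library numbers pair no embryos. Depth limits members with few UMIs and the small classes, with 17 astrocyte-like and 9 non-neural cells in the lowest Eed-cKO embryo.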
